A study of Mus musculus with 40 samples.

Results

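Tumours grown from B16F10 cells in untreated mice were compared with untreated B16F10 cells kept in culture, to describe which host genes appear and which melanoma genes change when the cells grow in the animal. The arrays were chosen by their labels. They are the 11 untreated tumours of the OTX015 experiment and the 4 untreated cultures, and the 5 untreated tumours of the guadecitabine experiment served to check the direction of each difference, which makes 20 of the 40 arrays of the series. The series measured RNA of mouse melanoma cells and tumours with and without OTX015, an inhibitor of BET bromodomain proteins, or guadecitabine, an inhibitor of DNA methylation. No treated array was used here. B16F10 is a pigmented cutaneous melanoma line of the C57BL/6 mouse, selected for its spread to the lung. For the tumours, B16F10 cells were placed under the skin of C57black6J mice aged 8 weeks, and the animals of both tumour sets received neither drug. The cultures grew in DMEM with 10% fetal bovine serum and 2 mM glutamine. All groups therefore carry 1 cell line with no engineered allele. The sources used here do not give the sex of the mice, a vehicle, the time of growth or the size of the tumours. The labels call the tumour samples melanocytes of tumours and mention no sorting step, so their RNA is treated here as that of whole tumour tissue. They do not say whether replicates came from separate animals or cultures, and a p-value then measures only the spread between these samples, which may be technical.

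A subcutaneous tumour holds melanoma cells together with host cells: macrophages and other leukocytes, vessels with blood, fibroblasts and the matrix they make. Melanoma cells are marked by the enzymes and structural proteins of the melanosome and by the transcription factors MITF and SOX10. Cells in a solid tumour meet less oxygen and other nutrient levels than cells in medium, and the transcription factors HIF1 and ATF4 are the textbook regulators of the responses to low oxygen and to lack of amino acids.

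Levels are given as the log2 array values, where 1 unit is a factor of 2, and they compare samples for 1 gene but not genes with each other. A gene is taken as above background when its group mean passes 4.58, the 95th percentile of 79 probe sets of olfactory and vomeronasal receptors, which serve smell and are used here as genes that should be silent. Of 17097 genes tested with limma, 3502 (20.5%) were higher and 5022 (29.4%) were lower in the OTX015-experiment tumours than in the cultures at a Benjamini-Hochberg adjusted p under 0.05. At least 2-fold differences were found for 258 genes that were higher (1.51%) and 1121 that were lower (6.56%). In the guadecitabine-experiment tumours against the same cultures, 1693 genes (9.90%) were higher and 4836 (28.3%) lower, with 355 (2.08%) and 1272 (7.44%) at 2-fold or more. Genes with a group mean above background had a median log2 difference of -0.297 in the OTX015-experiment tumours and -0.267 in the guadecitabine-experiment tumours. The other genes had medians of 0.131 and -0.016. Calls of a small difference depend on the scaling. Of the calls in the OTX015-experiment tumours 41.1% were higher as deposited, 27.3% after centring each array on its median and 51.4% after quantile normalization. The shares in the guadecitabine-experiment tumours were 25.9%, 14.9% and 34.6%. The receptor genes themselves had a median difference of 0.21 in the OTX015-experiment tumours, where 34 of 74 were called higher, and of 0.005 in the guadecitabine-experiment tumours. A small rise in a gene near background is therefore no larger than that of these receptor genes. Arrays of the OTX015-experiment tumours correlated with each other at 0.962 to 0.997 and with the cultures at 0.919 to 0.981. Their replicates 9 and 11 stood lowest against the cultures, at 0.919 to 0.941, and had the smallest spread of values. Replicate 5 of the guadecitabine-experiment tumours correlated at 0.967 to 0.989 with the OTX015-experiment tumours, where the other 4 reached 0.92 to 0.964. Its group is taken from its label, whether that label is right was not tested, and the 5-tumour values include it. Counts without these arrays are given where they move by over 1.5 times or end a statement. Where every array of a group lay below background, the difference is set by the noise of that group, and a bound counted from the background level is given as "at least".

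The genes with the largest rises were mostly those of macrophages and blood. All 23 measured macrophage genes were higher in the OTX015-experiment tumours than in the cultures, 21 of them at least 2-fold, with a median log2 difference of 2.90 against 0.014 over all genes. All 23 were higher in the guadecitabine-experiment tumours as well, 17 at least 2-fold, with a median of 1.89, and 22 without its replicate 5. The mean level of the list lay between 5.97 and 7.51 in the 11 OTX015-experiment tumours and between 5.68 and 6.23 in the 5 guadecitabine-experiment tumours, against 3.62 to 3.82 in the 4 cultures. Every tumour of both sets thus stood above every culture, and the cultures stood below background. In bulk RNA, fewer cells of a type and less RNA per cell cannot be told apart, nor can more cells and more RNA per cell.

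Lyz2, which encodes the lysozyme of myeloid cells, had log2 levels of 9.85 at the lowest, 10.51 at the median and 11.49 at the highest in the OTX015-experiment tumours, against 4.04, 3.94, 4.63 and 4.10 in the cultures. The groups did not overlap, and the log2 difference was 6.45 ± 0.26 (SE, limma adjusted p = 1.23e-11). It was 5.73 in the guadecitabine-experiment tumours. C1qa encodes a chain of C1q, the first component of complement, which tissue macrophages make. Its level was 7.14 at the lowest, 8.22 at the median and 8.91 at the highest in the OTX015-experiment tumours and 7.22, 6.89, 7.08, 7.04 and 7.45 in the guadecitabine-experiment tumours, against 3.28, 3.28, 3.53 and 3.13 in the cultures. All cultures lay below background and all tumours well above it, with a difference of 4.87 ± 0.29 (SE, limma adjusted p = 2.64e-09) in the first set and 3.83 in the second. Ctss, the cathepsin that trims the invariant chain in antigen-presenting cells, differed by 6.42, Srgn, the granule proteoglycan serglycin, by 5.40, and Lilrb4a, an inhibitory receptor of myeloid cells, by 4.59. Cd68, a lysosomal glycoprotein of macrophages, differed by 3.95, the mannose receptor gene Mrc1 by 4.17, and Tyrobp, an adaptor of activating receptors, by 4.02. None of these groups overlapped. Counted from background, C1qa was at least 12.1-fold higher in the OTX015-experiment tumours, Ctss at least 27.9-fold, Srgn at least 29.8-fold, Lilrb4a at least 17.1-fold, Cd68 at least 9.01-fold, Mrc1 at least 7.12-fold and Tyrobp at least 11.0-fold. The surface markers used most often for macrophages moved less. Adgre1, an adhesion receptor that marks mouse macrophages, had 5.30 at the lowest, 6.05 at the median and 6.94 at the highest in the OTX015-experiment tumours, against 3.68, 3.99, 4.02 and 3.77 in the cultures, a difference of 2.25 ± 0.27 (SE, limma adjusted p = 5.45e-06) and at least 2.91-fold. Csf1r, the receptor for the macrophage growth factor CSF1, differed by 1.02 ± 0.22 and by 0.45 in the guadecitabine-experiment tumours. Its tumour values began at 4.95 and 4.86 in the 2 sets, near the culture values of 4.34 to 4.65. Ptprc, the CD45 antigen of all leukocytes, was higher by 3.65 ± 0.37 in the OTX015-experiment tumours and by 2.43 in the guadecitabine-experiment tumours, at least 5.84-fold in the first.

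**Figure D1:**
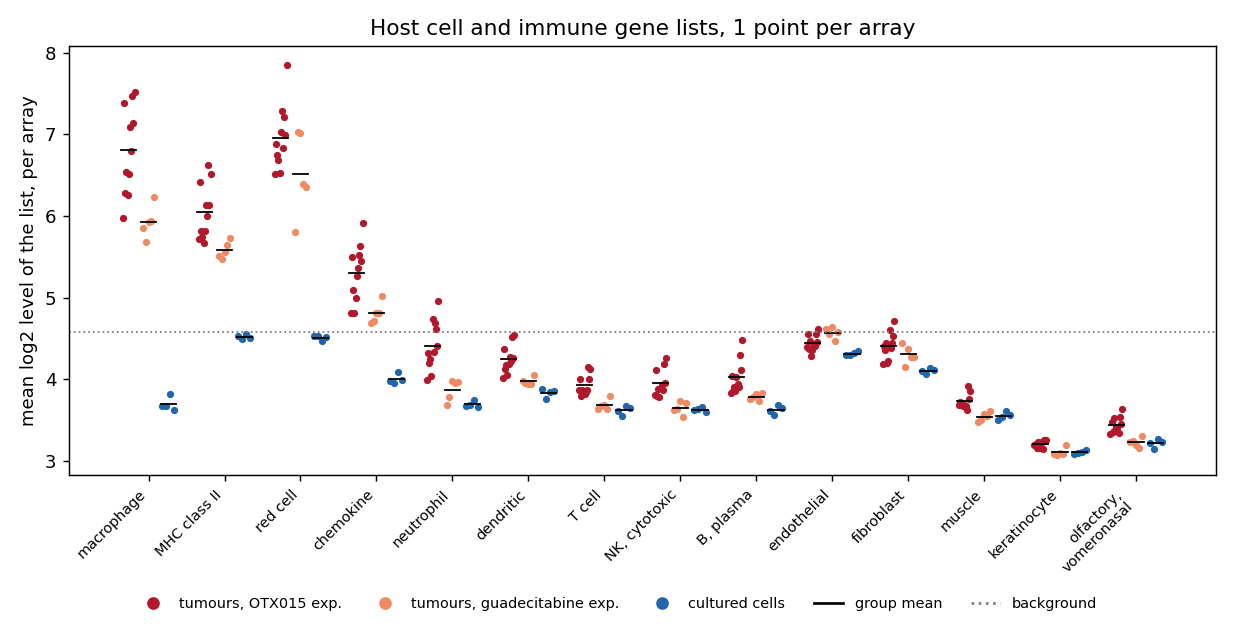
Mean log2 level of 14 gene lists, 1 point per array, with group means as lines and background dotted. OTX015-experiment tumours, guadecitabine-experiment tumours and cultures stand from left to right within each list. The macrophage points of the cultures end at 3.82 and those of the tumours begin at 5.68, while the T cell, keratinocyte and muscle lists stay below background in all groups.

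Ligands that draw leukocytes were also higher. Of 32 chemokine and receptor genes measured, 23 rose and 1 fell in the OTX015-experiment tumours (14 rises at least 2-fold, median 0.65), and 17 rose and 3 fell in the guadecitabine-experiment tumours (median 0.31). Ccl9 and Ccl6 are chemokines of rodent myeloid cells. Ccl9 had 6.95 at the lowest, 8.66 at the median and 9.77 at the highest in the OTX015-experiment tumours and 7.70, 7.67, 7.22, 7.94 and 7.75 in the guadecitabine-experiment tumours, against 3.43, 3.64, 3.72 and 3.68 in the cultures. Every tumour lay at least 3 units above every culture, and the difference was 4.70 ± 0.45 (SE, limma adjusted p = 5.29e-07) in the OTX015-experiment tumours. A second probe set of Ccl9 gave 3.53. Ccl6 differed by 4.08. From background, the rises were at least 13.3-fold for Ccl9 and 9.11-fold for Ccl6. Ccl2 and Ccl12, ligands of the monocyte receptor CCR2, differed by 3.33 and 3.73 in the OTX015-experiment tumours and by 2.85 and 3.26 in the guadecitabine-experiment tumours, at least 5.21-fold and 6.42-fold in the first set. Cxcl2, a neutrophil attractant, ranged from 6.10 over a median of 7.98 to 9.35 in the OTX015-experiment tumours and was 4.15, 4.91, 5.87, 6.28 and 6.30 in the guadecitabine-experiment tumours, against 2.90, 3.27, 3.44 and 2.84 in the cultures. It was above the cultures in all tumours, by 4.76 ± 0.47 (SE, limma adjusted p = 8.49e-07) in the first set and by 2.39 in the second, and the sets themselves differed by -2.37 ± 0.49 (SE, limma adjusted p = 0.00262). The rise was at least 9.81-fold in the first set. The neutrophil list had 8 of 12 members higher in the OTX015-experiment tumours, 2 at least 2-fold, and 2 of 12 higher in the guadecitabine-experiment tumours, or 1 without replicate 5. Only 4 of the 12 had a group mean above background in the first comparison, where the list median was 0.38. There the receptor genes had 34 of 74 higher and a median of 0.21, and all genes had 20.5% higher. S100a9 and S100a8 encode the subunits of calprotectin, the main cytosolic protein of neutrophils. S100a9 had 4.67 at the lowest, 5.97 at the median and 8.22 at the highest in the OTX015-experiment tumours, against 3.41, 3.13, 3.0 and 3.15 in the cultures, and differed by 3.17 ± 0.61 (SE, limma adjusted p = 0.000553), at least 3.39-fold. S100a8 was higher by 2.02 (adjusted p = 0.0124, at least 1.91-fold) there, and in the guadecitabine-experiment tumours its difference of 0.47 did not pass (adjusted p = 0.204).

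Products associated with activated macrophages were higher and varied among tumours. Arg1, the arginase that uses up arginine, had 3.60 at the lowest, 6.41 at the median and 8.68 at the highest in the OTX015-experiment tumours and 5.51, 5.79, 6.27, 5.82 and 6.39 in the guadecitabine-experiment tumours, against 3.34, 2.63, 2.92 and 3.83 in the cultures. The lowest OTX015-experiment tumour lay within the cultures, and the difference was 3.20 ± 0.73 (SE, limma adjusted p = 0.00204), at least 3.5-fold. Mmp12, the macrophage elastase, had 5.98 at the lowest, 8.48 at the median and 9.66 at the highest, against 3.22, 3.77, 3.30 and 3.56 in the cultures, with no overlap and a difference of 4.47 ± 0.54 (SE, limma adjusted p = 7.18e-06), at least 10.3-fold. Lgals3, the lectin galectin-3, was already above background in culture and higher by 3.63 in tumours. Il1b, the cytokine interleukin 1 beta, differed by 2.21 in the OTX015-experiment tumours and by 0.67 in the guadecitabine-experiment tumours, at least 3.46-fold in the first.

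Genes of class II antigen presentation rose with the macrophage genes. Of 14 measured, 9 were higher in the OTX015-experiment tumours, 5 of them at least 2-fold (median 0.62), and 7 were higher and 1 lower in the guadecitabine-experiment tumours (median 0.26; 2 lower without replicate 5). H2-Aa, the alpha chain of the class II molecule I-A, had 7.18 at the lowest, 8.01 at the median and 9.39 at the highest in the OTX015-experiment tumours and 6.92, 6.95, 7.42, 7.32 and 7.39 in the guadecitabine-experiment tumours, against 4.53, 4.24, 4.50 and 4.40 in the cultures. The cultures were below background and no tumour was, with differences of 3.64 ± 0.37 (SE, limma adjusted p = 1.13e-06) and 2.79, at least 11.1-fold in the first set. Cd74, the invariant chain, differed by 2.86, and H2-Ab1 and H2-Eb1, class II beta chains, by 2.59 and 2.60, with at least 4.53-fold for H2-Ab1. The dendritic cell list had 6 of 9 members higher in the OTX015-experiment tumours and none at 2-fold, and 2 of 9 higher in the guadecitabine-experiment tumours. Only 3 of the 9 had a group mean above background in the first comparison, where the list median was 0.39. The receptor genes had 34 of 74 higher and a median of 0.21 in the same tumours. All genes had 20.5% higher in the first set and 9.90% in the second. Complement genes had 9 of 16 higher and 3 lower in both tumour sets, with medians of 0.53 and 0.54. C4b, the complement component C4, was 6.12 at the lowest, 6.69 at the median and 7.57 at the highest in the OTX015-experiment tumours and 8.29, 7.57, 7.82, 7.54 and 7.43 in the guadecitabine-experiment tumours, against 4.89, 5.00, 5.40 and 5.12 in the cultures. It was the other way round from the macrophage genes between the tumour sets, higher by 1.07 in the guadecitabine-experiment tumours (limma adjusted p = 0.00205).

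The signal of the globin gene Hba-a1 was high in every tumour. Of 5 red cell genes measured, 3 were higher in the OTX015-experiment tumours, while 2 were higher and 1 lower in the guadecitabine-experiment tumours. Hba-a1, the alpha globin of red cells, had 12.59 at the lowest, 12.75 at the median and 12.97 at the highest in the OTX015-experiment tumours and 12.35, 12.87, 12.81, 12.73 and 12.42 in the guadecitabine-experiment tumours, against 6.53, 6.66, 6.62 and 6.88 in the cultures. The tumour values spread over less than 1 unit, and the difference of 6.11 ± 0.08 (SE, limma adjusted p = 3.5e-18) was 5.96 in the second set. These tumour values lie near the top of the scale, where the highest value per array was 12.74 to 13.04. Whether the signal is saturated there was not tested, so the narrow spread does not show that the tumours held equal amounts. The beta globin gene Hbb-b2 differed by 7.02 and 6.80. Its other probe sets gave 3.55 and 0.81 in the OTX015-experiment tumours, the last with both group means below background. Globin probe sets can take up transcripts of near-identical globin genes. The 1 probe set of the other alpha globin gene, Hba-a2, did not follow, with -0.21 in the first set (adjusted p = 0.102) and -0.76 in the second (adjusted p = 0.00276). Pf4, a chemokine of platelets that some macrophages also make, was higher by 4.18, at least 13.4-fold, and it was the 1 called gene of the 6 platelet genes measured. Fabp4, a fatty acid binding protein of fat cells, vessels and macrophages, was higher by 3.45, at least 3.48-fold, and was the 1 called gene of the 5 fat cell genes. Cd36, a receptor for fatty acids on macrophages, vessels and platelets, was higher by 3.20, at least 3.27-fold. Tmsb4x, the actin-binding peptide thymosin beta 4, had the largest fitted rise among the probe sets that stand for the named genes, although 2 other probe sets of Hba-a1 gave 7.51 and 7.74. It had 10.05 at the lowest, 10.91 at the median and 11.68 at the highest in the OTX015-experiment tumours and 10.16, 10.57, 10.51, 10.23 and 10.41 in the guadecitabine-experiment tumours, against 3.59, 3.60, 3.36 and 3.45 in the cultures. The cultures were below background, and the difference was 7.29 ± 0.26 (SE, limma adjusted p = 4.6e-12), at least 73.9-fold.

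**Figure D2:**
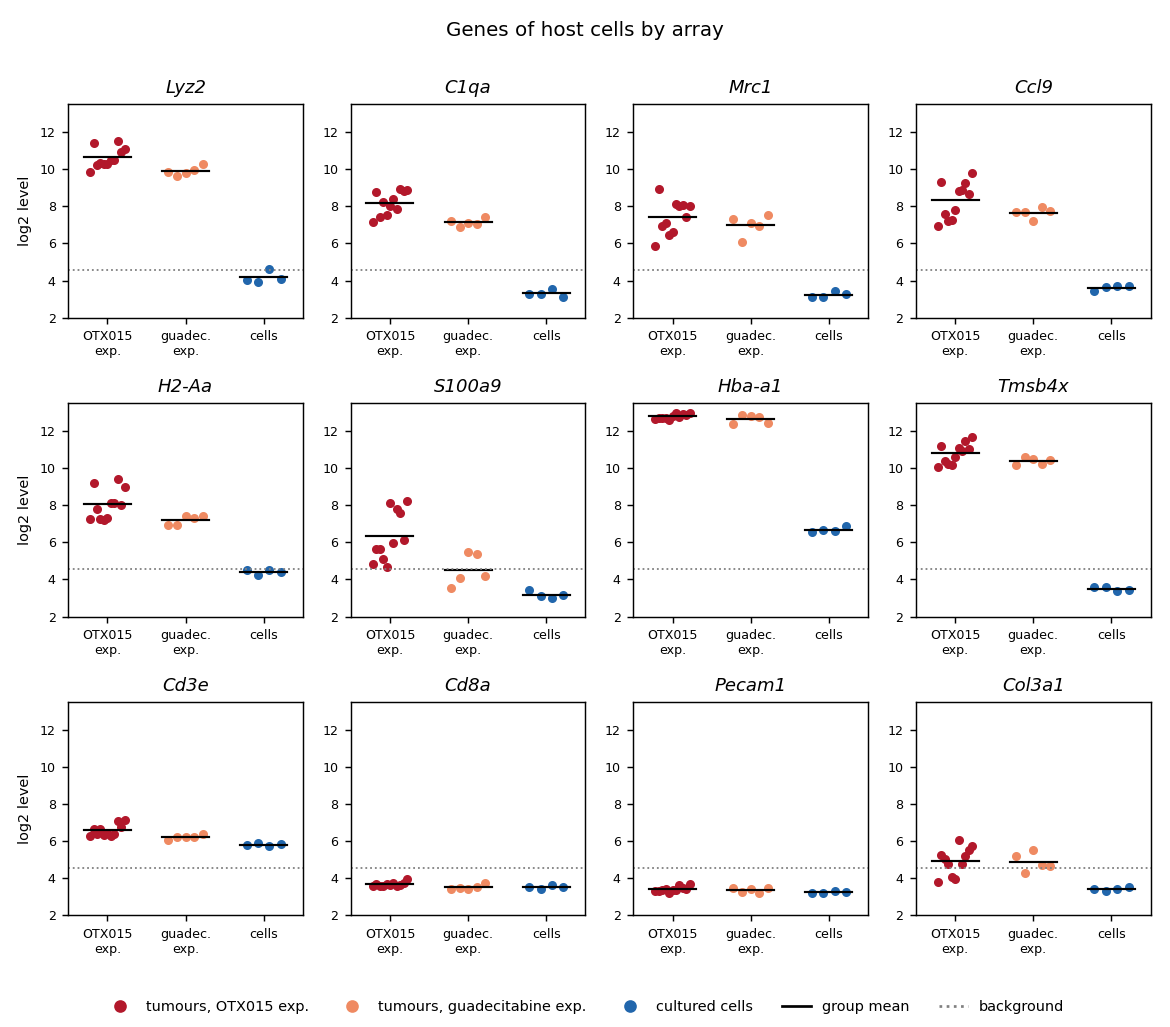
Log2 level of 12 genes by array, 1 point per array, with group means as lines and background dotted. OTX015-experiment tumours, guadecitabine-experiment tumours and cultures run from left to right. Lyz2, Hba-a1 and Tmsb4x are 6 to 7 units higher in the first tumours, and Cd8a and Pecam1 stay below background throughout.

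Lymphocyte and vessel lists had smaller medians than the macrophage list. Of 15 T cell genes 7 were higher in the OTX015-experiment tumours, none at 2-fold, with a median of 0.22, which is close to the 0.21 of the receptor genes. In the second set 3 of 15 were higher and the median was 0.03. Cd3e, a chain of the T cell receptor complex, had 6.26 at the lowest, 6.43 at the median and 7.13 at the highest in the OTX015-experiment tumours and 6.08, 6.2, 6.24, 6.22 and 6.37 in the guadecitabine-experiment tumours, against 5.77, 5.91, 5.73 and 5.83 in the cultures. Its probe set read above background in cultured melanoma cells, and the difference was 0.77 ± 0.15 (SE, limma adjusted p = 0.000596). Cd8a, the coreceptor of cytotoxic T cells, lay between 3.59 and 3.96 in the OTX015-experiment tumours and between 3.43 and 3.62 in the cultures, all below background, and did not pass (adjusted p = 0.0816). Of 12 genes of NK and cytotoxic cells 7 were higher, of 8 B and plasma cell genes 4, and of 8 mast cell genes 7, with 1 at 2-fold among all of these. Among the receptor genes 34 of 74 were called higher in the same tumours. In the guadecitabine-experiment tumours 2 NK and cytotoxic genes were higher and 1 lower. There 2 B and plasma cell genes and 1 mast cell gene were higher, the last of which was not called without replicate 5. Of 18 endothelial genes 6 were higher in the OTX015-experiment tumours, none at 2-fold, and 3 in the guadecitabine-experiment tumours, 2 of them at 2-fold. The mean of the list was 4.28 to 4.62 in the OTX015-experiment tumours and 4.47 to 4.64 in the guadecitabine-experiment tumours, against 4.29 to 4.34 in the cultures. The 2 genes were Ramp2, a partner of the calcitonin-like receptor, at 2.19 (-0.60 in the first set, adjusted p = 0.0933), and Vwf, the von Willebrand factor of endothelium, at 1.04 (-0.32, adjusted p = 0.0913). Ramp2 was already high in the cultures, at a mean of 9.57. Its other probe sets differed by -0.62 and -1.12 in the OTX015-experiment tumours (limma adjusted p = 7.33e-05 and 0.0314 over every probe set). Pecam1, the CD31 antigen of endothelium, lay between 3.20 and 3.68 in the OTX015-experiment tumours and between 3.19 and 3.31 in the cultures, below background in all samples (log2 difference 0.17, adjusted p = 0.0979). Absent signal for Cd8a and Pecam1 at this sensitivity does not show that T cells or vessels were missing. Of 16 fibroblast genes 6 were higher and 2 lower, 2 of the rises at least 2-fold. Col3a1, a fibrillar collagen of connective tissue, had 3.79 at the lowest, 5.06 at the median and 6.05 at the highest in the OTX015-experiment tumours and 5.19, 4.26, 5.52, 4.72 and 4.65 in the guadecitabine-experiment tumours, against 3.45, 3.30, 3.43 and 3.55 in the cultures. Every tumour stood above the cultures, by 1.5 ± 0.34 (SE, limma adjusted p = 0.0018), at least 1.28-fold. A second probe set of Col3a1 differed by 0.28 in the OTX015-experiment tumours, with both group means below background. Col1a1, the other main fibrillar collagen, lay between 3.16 and 3.73 in the tumours and between 3.22 and 3.38 in the cultures and did not pass (adjusted p = 0.758). Skin and muscle, the tissues around the graft, gave little. Of 13 keratinocyte genes 2 were higher, and Krt14, a keratin of basal skin cells, stayed below background in all groups. Of 15 skeletal muscle genes 7 were higher and 1 lower, none at 2-fold, and 2 were higher and 1 lower in the guadecitabine-experiment tumours.

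Matrix and protease genes had both rises and falls, with more rises. Of 31 matrix genes 14 were higher and 4 lower in the OTX015-experiment tumours. Of 27 protease genes 12 were higher and 5 lower, with 6 rises at least 2-fold. Over all genes 20.5% were higher and 29.4% lower in the same tumours. Adam12, a membrane-bound metalloprotease, had 8.41 at the lowest, 8.64 at the median and 9.26 at the highest in the OTX015-experiment tumours and 9.17, 8.04, 9.06, 8.59 and 9.09 in the guadecitabine-experiment tumours, against 5.43, 5.55, 5.87 and 5.82 in the cultures. The groups were far apart, with a difference of 3.13 ± 0.16 (SE, limma adjusted p = 2.25e-10), and 3.12 in the second set. Unlike the macrophage genes it showed no detectable difference between the tumour sets (-0.01, adjusted p = 0.986). Tgfbi, a matrix protein induced by TGF beta, differed by 4.03, at least 7.11-fold, with 2.46 in its second probe set. Bgn, the proteoglycan biglycan, differed by 1.19.

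The melanocyte label was checked on the pigment genes, whose main markers stood far above background in tumours and cultures, while the macrophage genes above show that the tumour RNA is not that of melanocytes alone. Of 26 measured melanocyte and pigment genes, 6 were higher and 9 lower in the OTX015-experiment tumours, 3 and 1 of them at least 2-fold, with a median of -0.16. These are 23.1% and 34.6% of the list, near the 20.5% and 29.4% of all genes, and the counts were 5 and 13 after median centring and 8 and 7 after quantile normalization, so which direction leads depends on the scaling. The second set had 7 higher and 7 lower. The brightest of these probe sets differed little. They lie near the top of the scale, where the highest value per array was 12.74 to 13.04, and whether the signal is saturated there was not tested. Dct, dopachrome tautomerase, had 12.45 at the lowest, 12.61 at the median and 12.78 at the highest in the OTX015-experiment tumours and 12.92, 12.69, 12.72, 12.73 and 12.64 in the guadecitabine-experiment tumours, against 12.80, 12.80, 12.74 and 12.75 in the cultures. The groups overlapped, with a difference of -0.16 ± 0.06 (SE, limma adjusted p = 0.0505), just short of the threshold. Tyrp1, its relative in the melanosome, differed by -0.13 (adjusted p = 0.129), Pmel, the fibril protein of the melanosome, by -0.16 (adjusted p = 0.0701), Mlana by 0.02 (adjusted p = 0.846) and the transcription factor Sox10 by -0.07 (adjusted p = 0.678). Tyr, the tyrosinase that starts melanin synthesis, was higher in tumours. It had 9.98 at the lowest, 10.27 at the median and 10.60 at the highest in the OTX015-experiment tumours and 10.54, 10.16, 9.99, 10.29 and 10.19 in the guadecitabine-experiment tumours, against 8.78, 8.88, 9.20 and 8.76 in the cultures. No tumour of either set overlapped the cultures, and the difference was 1.42 ± 0.11 (SE, limma adjusted p = 5.23e-08), or 2.67-fold. Oca2, a melanosome transport protein that sets the pH tyrosinase works at, had 7.32 at the lowest, 7.81 at the median and 8.45 at the highest in the OTX015-experiment tumours, against 6.10, 6.09, 6.03 and 5.23 in the cultures. It was higher in every tumour, by 1.98 ± 0.18 (SE, limma adjusted p = 3.42e-07). Trpm1, a cation channel gene of melanocytes, was higher by 0.94, and Cited1, a transcription cofactor, by 1.18. Mitf, the master regulator of the lineage, had 9.22 at the lowest, 10.59 at the median and 11.12 at the highest in the OTX015-experiment tumours and 10.98, 10.52, 10.72, 10.98 and 10.78 in the guadecitabine-experiment tumours, against 11.35, 11.30, 11.08 and 11.19 in the cultures. Its difference of -0.73 ± 0.24 (SE, limma adjusted p = 0.0211) did not pass without culture replicate 1 (-0.69, adjusted p = 0.0613) or 2 (-0.71, adjusted p = 0.0575). Gpr143, a receptor of the melanosome membrane, fell by 1.15 on the log2 scale, Mc1r, the receptor for melanocyte-stimulating hormone, fell by 0.83, and Rab38, a GTPase of melanosome transport, fell by 0.66, each without overlap. Kit, the receptor for stem cell factor, differed by 0.62 in the OTX015-experiment tumours (adjusted p = 0.111) and by 1.69 in the guadecitabine-experiment tumours (adjusted p = 0.000161), and its values in the guadecitabine-experiment tumours were 8.22, 7.31, 7.34, 7.20 and 6.74, against 5.73, 5.72, 5.45 and 5.79 in the cultures.

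**Figure D3:**
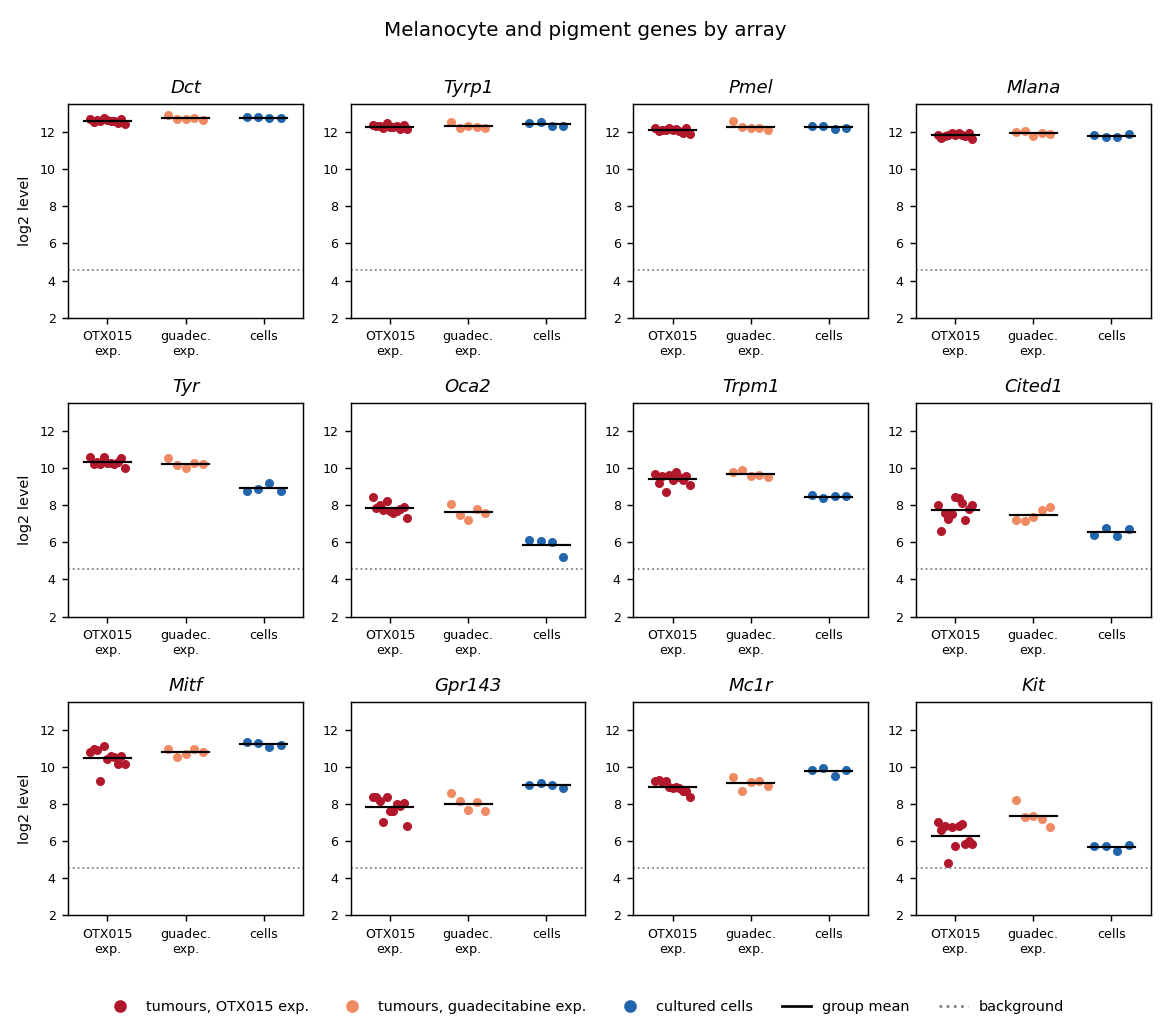
Log2 level of 12 melanocyte and pigment genes by array, with group means as lines and background dotted. OTX015-experiment tumours, guadecitabine-experiment tumours and cultures run from left to right. Dct lies between 12.45 and 12.92 in every array, Tyr and Oca2 are higher in all tumours, and Gpr143 and Mc1r are lower in all tumours.

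Genes of the amino acid and integrated stress response fell together. In this response the kinases that sense missing amino acids or misfolded protein raise the translation of ATF4, which turns on enzymes of amino acid synthesis and uptake. Of 26 measured genes 21 were lower and 3 higher in the OTX015-experiment tumours, 14 of the falls at least 2-fold, with a median of -1.06. The median over all genes above background was -0.297 in that comparison. In the guadecitabine-experiment tumours 17 were lower and 1 higher, 14 of the falls at least 2-fold, with a median of -1.04. In 18 of the 26 every OTX015-experiment tumour lay below every culture, which held for 3457 of all genes (20.2%), while 1740 (10.2%) had every tumour above. The mean level of the list was 6.35 to 6.87 in the OTX015-experiment tumours and 6.29 to 6.62 in the guadecitabine-experiment tumours, against 7.61 to 7.76 in the cultures, so that no tumour reached the lowest culture.

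The ATF4 motif searched for was TGATGNAA on both strands, in the 250 bases before the transcription start (RefSeq, GRCm38.p6). It was in the windows of 7 of the 22 list members with a RefSeq promoter (31.8%) and of 3.9% of all 27025 genes. Of these 7 genes, Asns, Chac1, Nupr1 and the dim Slc7a11 were lower in the OTX015-experiment tumours, Atf3 and Vldlr were higher, and Fgf21 did not pass. The windows of Asns (chr6:7693210-7693459, minus strand), Chac1 (chr2:119350992-119351241, plus strand) and Nupr1 (chr7:126625471-126625720, minus strand) are shown because they hold the motif and their genes fell at least 2-fold. Capitals mark the match, which starts 23 bases before the start of Asns, 193 before that of Chac1 and 110 before that of Nupr1, and which reads as the reverse complement in Chac1 and Nupr1. A match is a run of letters and was not tested as a binding site. The list was made of known genes of this response, so the share with the motif describes the list and not these tumours.
Asns: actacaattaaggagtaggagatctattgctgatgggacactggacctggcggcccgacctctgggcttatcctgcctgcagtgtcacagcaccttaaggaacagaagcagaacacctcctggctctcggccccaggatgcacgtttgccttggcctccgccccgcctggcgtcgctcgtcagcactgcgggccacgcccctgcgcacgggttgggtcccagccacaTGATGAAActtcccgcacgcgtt
Chac1: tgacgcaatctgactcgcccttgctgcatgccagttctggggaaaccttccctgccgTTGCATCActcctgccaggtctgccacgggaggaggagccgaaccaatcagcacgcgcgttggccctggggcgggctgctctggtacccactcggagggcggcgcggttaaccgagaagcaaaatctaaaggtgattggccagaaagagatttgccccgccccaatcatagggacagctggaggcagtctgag
Nupr1: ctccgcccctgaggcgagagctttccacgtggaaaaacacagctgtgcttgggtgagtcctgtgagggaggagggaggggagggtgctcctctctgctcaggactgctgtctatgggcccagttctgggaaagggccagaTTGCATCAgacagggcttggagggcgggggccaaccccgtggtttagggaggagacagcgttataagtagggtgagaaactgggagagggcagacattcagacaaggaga

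Asns, asparagine synthetase, had 8.47 at the lowest, 8.96 at the median and 9.52 at the highest in the OTX015-experiment tumours and 8.56, 8.36, 8.27, 8.75 and 8.96 in the guadecitabine-experiment tumours, against 11.01, 11.08, 10.81 and 10.85 in the cultures. The sets were separated by more than 1 unit, and Asns fell by 1.95 on the log2 scale (SE 0.14, limma adjusted p = 3.07e-08), 3.87-fold. Chac1, an enzyme that breaks down glutathione, had 6.79 at the lowest, 7.39 at the median and 8.81 at the highest, against 9.68, 9.62, 9.53 and 9.37 in the cultures, and fell by 2.09 (SE 0.27, limma adjusted p = 1.48e-05). Nupr1, a small chromatin protein of stressed cells, had 5.74, 6.06 and 6.67 at these points of its range, against 8.78, 8.92, 8.76 and 8.58 in the cultures, and fell by 2.71 (SE 0.14, limma adjusted p = 2.85e-10). Neither gene overlapped between tumours and cultures. Trib3, a pseudokinase induced by ATF4, had 5.97 at the lowest, 6.49 at the median and 7.47 at the highest in the OTX015-experiment tumours and 6.21, 5.41, 5.99, 6.66 and 6.16 in the guadecitabine-experiment tumours, against 9.32, 9.57, 9.5 and 9.42 in the cultures. It was lower by nearly 2 units even in the highest tumour, and fell by 2.85 (SE 0.22, limma adjusted p = 6.38e-08). Cth, the enzyme that makes cysteine from cystathionine, fell by 3.08 to near background, with tumour values of 3.89 to 5.43 against culture values of 7.57 to 7.98. The serine pathway enzymes moved the same way. Psph fell by 2.14, Psat1 by 1.45 and Phgdh by 1.38, and Shmt2, which turns serine into glycine in mitochondria, by 1.26, although its other probe sets gave -0.74 and -0.20. The transcription factors of the response were lower at the RNA level too. Atf4 fell by 0.87, Ddit3, which encodes CHOP, by 2.01, and Atf5, a relative of ATF4 that is not on the list, by 3.11 (8.64-fold). Atf3, which immediate early signals also induce, was higher by 1.18 in the OTX015-experiment tumours (adjusted p = 0.00523) and not in the guadecitabine-experiment tumours (-0.28, adjusted p = 0.102). Of 20 genes of the unfolded protein response, the chaperone side of the stress response, 5 were higher and 4 lower in the OTX015-experiment tumours.

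**Figure D4:**
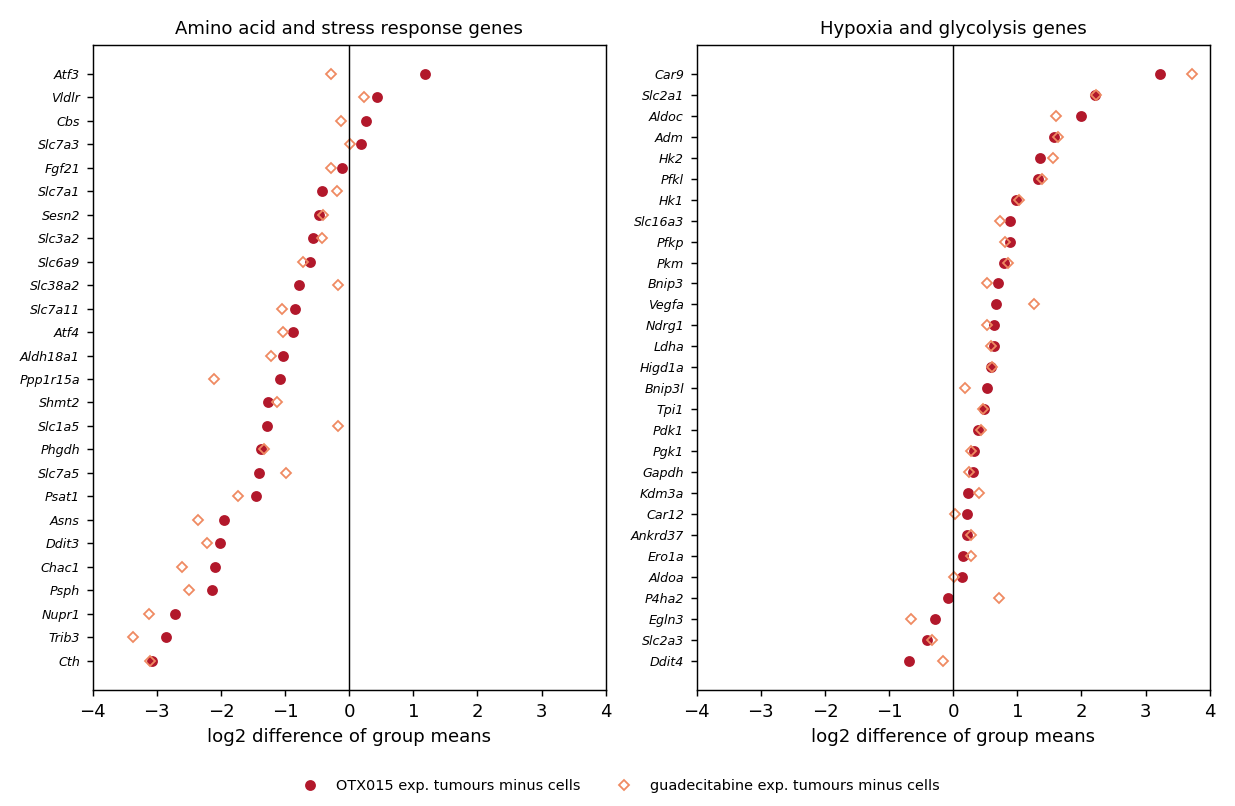
Log2 difference of group means from the cultures for the 26 amino acid and stress response genes and the 29 hypoxia and glycolysis genes. Filled circles are OTX015-experiment tumours and open diamonds guadecitabine-experiment tumours, and both are set against the same 4 cultures. Most genes of the first list lie left of 0, down to -3.08 for Cth, and most of the second lie right of it, up to 3.23 for Car9.

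Hypoxia and glycolysis genes were higher. Of 29 measured, 19 were higher and 2 lower in the OTX015-experiment tumours, 6 of the rises at least 2-fold, with a median of 0.59, and 20 were higher and 2 lower in the guadecitabine-experiment tumours, with a median of 0.53. Without OTX015-experiment replicates 9 and 11, 22 were higher and 1 lower, and without guadecitabine-experiment replicate 5, 21 and 1. The mean of the list was 8.71 to 9.41 in the OTX015-experiment tumours and 9.0 to 9.28 in the guadecitabine-experiment tumours, against 8.26 to 8.55 in the cultures. Car9, carbonic anhydrase IX, which handles acid at the surface of hypoxic cells, had 9.07 at the lowest, 9.52 at the median and 9.99 at the highest in the OTX015-experiment tumours and 10.34, 9.60, 10.16, 9.93 and 9.82 in the guadecitabine-experiment tumours, against 6.31, 6.33, 6.08 and 6.25 in the cultures. All tumours stood far above all cultures, by 3.23 ± 0.17 (SE, limma adjusted p = 3.28e-10), 9.37-fold, and by 3.73 in the second set. Slc2a1, the glucose transporter GLUT1, had 9.05 at the lowest, 9.48 at the median and 9.92 at the highest in the OTX015-experiment tumours and 9.98, 9.04, 9.68, 9.30 and 9.40 in the guadecitabine-experiment tumours, against 7.29, 7.21, 6.97 and 7.53 in the cultures. It was higher in every tumour, by 2.21 ± 0.17 (SE, limma adjusted p = 4.37e-08).

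Along glycolysis, the hexokinase gene Hk2 was higher by 1.36, Pfkl, a phosphofructokinase, by 1.32 (0.26 in its dimmest probe set), Aldoc, an aldolase, by 2.00, and Ldha, which makes lactate, by 0.64. The secreted peptide Adm was higher by 1.57. Vegfa, the main growth factor of vessels, had 7.19 at the lowest, 8.27 at the median and 8.75 at the highest in the OTX015-experiment tumours and 9.27, 8.47, 9.11, 8.55 and 8.41 in the guadecitabine-experiment tumours, against 7.54, 7.52, 7.37 and 7.61 in the cultures. The OTX015-experiment tumours overlapped the cultures, and the difference of 0.67 ± 0.24 (SE, limma adjusted p = 0.0312) did not pass when any 1 culture was left out (0.619 to 0.698), while that of the guadecitabine-experiment tumours was 1.26 (adjusted p = 0.000174) without overlap. Of 25 genes of respiration 4 were lower in the OTX015-experiment tumours (median -0.07), and after quantile normalization 3 were higher and 3 lower. Without replicates 9 and 11, 3 were higher and 4 lower.

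The motif ACGTG, the core that HIF factors bind, was searched on both strands of the same windows. It was in 15 of the 26 hypoxia genes with a window (57.7%) and in 18.5% of all genes. Genes were listed for their known part in hypoxia or glycolysis, so this share describes the list and not these tumours. The windows of Car9 (chr4:43506776-43507025, plus strand) and Slc2a1 (chr4:119108495-119108744, plus strand), the genes with the largest rises in the list, are shown with the match in capitals, which starts 18 bases before the start of Car9, where it reads as the reverse complement, and 36 before that of Slc2a1. Each motif was counted in its own list only, whether or not the other stood nearby.
Car9: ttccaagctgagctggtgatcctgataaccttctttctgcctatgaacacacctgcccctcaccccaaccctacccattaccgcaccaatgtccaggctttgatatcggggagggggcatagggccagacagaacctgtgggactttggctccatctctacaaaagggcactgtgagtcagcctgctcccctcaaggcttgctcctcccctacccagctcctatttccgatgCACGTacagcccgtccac
Slc2a1: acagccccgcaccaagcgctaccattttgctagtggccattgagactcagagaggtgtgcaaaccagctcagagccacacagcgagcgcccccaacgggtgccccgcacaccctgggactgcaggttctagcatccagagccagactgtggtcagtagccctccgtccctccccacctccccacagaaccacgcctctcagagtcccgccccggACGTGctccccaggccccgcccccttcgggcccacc

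Immediate early genes differed between the tumour sets. These genes are switched on within minutes by growth factors, stress or tissue handling, and several are outputs or brakes of the ERK pathway. Of 24 measured, 17 were higher in the OTX015-experiment tumours, 13 at least 2-fold (median 1.14). In the guadecitabine-experiment tumours 11 were higher and 2 lower, 6 of the rises at least 2-fold (median 0.23), or 10 higher and 4 lower without replicate 5. Set directly against the OTX015-experiment tumours, the guadecitabine-experiment tumours had 1726 genes higher (10.1%) and 3437 lower (20.1%) over the whole array. Of the 24 genes of this list 12 were lower and 1 higher. Of these calls over the array 33.4% were higher as deposited, 26.6% after median centring and 25.2% after quantile normalization.

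Fos, a subunit of the AP-1 factor, had 10.23 at the lowest, 11.12 at the median and 11.79 at the highest in the OTX015-experiment tumours and 8.30, 8.44, 8.05, 9.16 and 9.08 in the guadecitabine-experiment tumours, against 6.01, 5.94, 5.52 and 5.77 in the cultures. The 3 groups did not overlap. The difference from the cultures was 5.22 ± 0.25 (SE, limma adjusted p = 1.36e-10) in the first set and 2.80 in the second. Fosb, its relative, had 5.06 at the lowest, 6.16 at the median and 9.56 at the highest in the OTX015-experiment tumours, but 4.29, 4.08, 3.91, 4.13 and 4.30 in the guadecitabine-experiment tumours, against 3.97, 4.05, 4.22 and 4.05 in the cultures. It was above background only in the OTX015-experiment tumours, at least 3.77-fold, and the second set did not pass (0.07, adjusted p = 0.628). Egr1, a zinc finger factor, was called in opposite directions, with 1.57 (adjusted p = 0.00227) in the OTX015-experiment tumours and -0.78 (adjusted p = 0.0163) in the guadecitabine-experiment tumours. Its values were 5.47 at the lowest, 6.82 at the median and 8.37 at the highest in the OTX015-experiment tumours and 4.46, 3.89, 4.48, 5.04 and 5.08 in the guadecitabine-experiment tumours, against 5.49, 5.32, 5.07 and 5.59 in the cultures. Jun differed by 1.91 in the first set (0.84 in its second probe set) and by 0.11 in the second, Klf2 by 2.59 (at least 2.68-fold) and 0.40, and Dusp1, a phosphatase that ends MAP kinase signals, by 3.31 and 1.22. For the ERK outputs Etv5, Dusp6 and Spry2 no such difference between the tumour sets was detectable. Dusp6 and Spry2 were named after their values were seen. Etv5, an ETS factor, had 6.65 at the lowest, 7.44 at the median and 7.96 at the highest in the OTX015-experiment tumours and 6.90, 6.31, 7.19, 7.16 and 7.81 in the guadecitabine-experiment tumours, against 2.89, 3.14, 2.97 and 3.27 in the cultures. The tumours stood more than 3 units above the cultures in both sets, by 4.30 ± 0.21 (SE, limma adjusted p = 1.69e-10) and 4.01, at least 6.92-fold and 5.64-fold. Dusp6, a phosphatase that acts on ERK, was higher by 1.11 and 1.0, and Spry2, an inhibitor of receptor signalling, by 1.59 and 1.2. Between the tumour sets Etv5, Dusp6 and Spry2 differed by -0.30, -0.11 and -0.39, with adjusted p of 0.322, 0.527 and 0.186. The labels do not say how the tumours of each set were collected, and the part of handling in these differences was not tested.

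**Figure D5:**
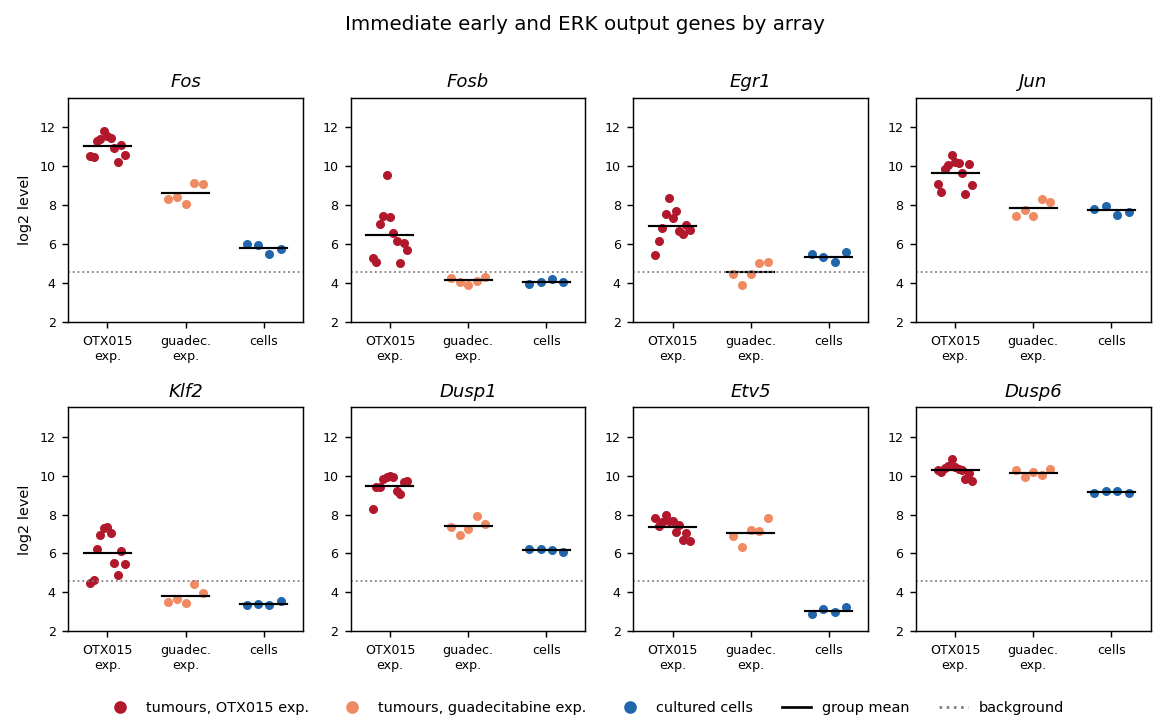
Log2 level of 8 immediate early and ERK output genes by array, with group means as lines and background dotted. OTX015-experiment tumours, guadecitabine-experiment tumours and cultures run from left to right. Fos falls into 3 separate levels, Fosb is above background in the OTX015-experiment tumours alone, and Etv5 and Dusp6 are high in both tumour sets.

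Interferon and class I genes were split. Of 27 type I interferon genes 8 were higher and 4 lower in the OTX015-experiment tumours (median 0.07), of 27 interferon gamma genes 11 were higher and 4 lower (median 0.26), and of 16 class I genes 7 were higher and 2 lower (median 0.26). Over all genes 20.5% were higher and 29.4% lower in that set. The first of these lists had 6 higher and 10 lower in the guadecitabine-experiment tumours, where all genes had 9.90% and 28.3%. H2-K1, a classical class I heavy chain, had 9.36 at the lowest, 9.93 at the median and 10.23 at the highest in the OTX015-experiment tumours, against 8.82, 9.10, 8.74 and 8.99 in the cultures, and was higher by 0.99 ± 0.14 (SE, limma adjusted p = 2.94e-05) without overlap. The immunoproteasome subunits Psmb8 and Psmb10 were higher by 1.56 and 1.03. Cxcl10, a chemokine that draws T cells, had 7.15 at the lowest, 8.17 at the median and 8.69 at the highest in the OTX015-experiment tumours and 8.26, 8.15, 8.24, 7.73 and 8.84 in the guadecitabine-experiment tumours, against 6.62, 6.60, 6.61 and 6.57 in the cultures. It was higher in all tumours, by 1.51 ± 0.20 (SE, limma adjusted p = 1.61e-05). Gbp2, a guanylate binding protein induced by interferon gamma, went the other way. It had 4.50 at the lowest, 5.02 at the median and 5.86 at the highest in the OTX015-experiment tumours and 4.29, 4.18, 4.76, 4.05 and 4.84 in the guadecitabine-experiment tumours, against 6.85, 7.02, 6.95 and 6.76 in the cultures. It fell by 1.81 (SE 0.19, limma adjusted p = 1.84e-06) with no overlap. Cd274, the gene of the immune checkpoint ligand PD-L1, was also lower. It had 4.98 at the lowest, 5.69 at the median and 6.02 at the highest in the OTX015-experiment tumours and 5.34, 5.16, 5.77, 5.41 and 5.33 in the guadecitabine-experiment tumours, against 6.70, 6.50, 6.62 and 6.38 in the cultures. Every tumour was below every culture, and Cd274 fell by 0.86 (SE 0.15, limma adjusted p = 0.000203). Tgtp1, an interferon-induced GTPase, was higher by 2.25, and the class I relatives H2-T23 and H2-Q4 differed by 0.66 and -0.80. H2 genes are near-identical copies, so their probe sets can share transcripts. The macrophage genes that moved with these lists differ in the same tumours, and their part in the class I and interferon differences was not tested.

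Genes of growth and division showed no common shift. Of 27 G1/S genes 4 were higher and 5 lower, and of 30 G2/M genes 1 was higher and 5 lower in the OTX015-experiment tumours, none at 2-fold. After quantile normalization the counts were 16 higher and 3 lower for G1/S and 10 higher for G2/M, so the direction of these lists depends on the scaling. Without replicates 9 and 11, 8 G1/S genes were higher and 5 lower, and 2 and 6 of the G2/M genes. Mki67, the Ki-67 antigen of cycling cells, had 8.26 at the lowest, 8.64 at the median and 8.94 at the highest in the OTX015-experiment tumours and 10.03, 9.36, 9.75, 9.39 and 9.03 in the guadecitabine-experiment tumours, against 8.31, 8.89, 7.64 and 8.64 in the cultures. The first set overlapped the cultures (0.23, adjusted p = 0.297), and the second was above them (1.14, adjusted p = 0.00392). Top2a, the topoisomerase of dividing cells, did not pass in either set (-0.11, adjusted p = 0.575, and 0.11, adjusted p = 0.419). Of 23 ribosomal protein genes 8 were lower, all by less than 2-fold (median -0.10). Tfrc, the transferrin receptor for iron uptake, had 10.12 at the lowest, 10.56 at the median and 10.96 at the highest in the OTX015-experiment tumours and 10.73, 9.97, 10.36, 10.60 and 10.34 in the guadecitabine-experiment tumours, against 7.89, 7.76, 7.90 and 7.98 in the cultures. It was higher in every tumour, by 2.70 ± 0.13 (SE, limma adjusted p = 1.93e-10), with 2.00 and 1.49 in its other probe sets. Met, the receptor for hepatocyte growth factor, was higher by 1.89, and Hspa1b, an inducible heat shock protein, by 3.33, with tumour values of 8.08 to 9.82 against culture values of 5.65 to 5.93. Of 23 p53 target genes 7 were higher and 8 lower in the OTX015-experiment tumours, 4 of the falls at least 2-fold, which is 30.4% and 34.8% where all genes had 20.5% and 29.4%. The guadecitabine-experiment tumours had 1 higher and 7 lower. Gadd45a, a growth arrest gene that p53 and ATF4 induce, had 4.54 at the lowest, 5.07 at the median and 5.45 at the highest in the OTX015-experiment tumours and 3.71, 4.10, 4.23, 4.16 and 4.18 in the guadecitabine-experiment tumours, against 7.21, 7.21, 7.36 and 7.09 in the cultures, and fell by 2.18 (SE 0.14, limma adjusted p = 6.2e-09). Trp53inp1, a p53-induced nuclear protein, fell by 1.02. Cdkn1a, the cell cycle inhibitor p21, was higher by 0.57 (adjusted p = 0.0344) with overlap, a call lost when any 1 culture was left out (0.535 to 0.622).

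Several of the 12 largest falls took a gene that cultured cells used to below background in tumours. Dync1i1, an intermediate chain of the dynein motor, had 3.57 at the lowest, 3.86 at the median and 4.13 at the highest in the OTX015-experiment tumours and 3.83, 3.95, 3.69, 3.77 and 3.94 in the guadecitabine-experiment tumours, against 7.87, 7.85, 8.39 and 8.19 in the cultures. All tumours were below background and all cultures far above it, and Dync1i1 fell by 4.25 (SE 0.12, limma adjusted p = 1.59e-13), at least 11.3-fold. Cavin2, a coat protein of caveolae, had 3.78 at the lowest, 4.14 at the median and 4.92 at the highest in the OTX015-experiment tumours and 3.89, 3.43, 3.84, 3.97 and 3.93 in the guadecitabine-experiment tumours, against 8.45, 8.19, 8.58 and 8.35 in the cultures. It fell by 4.21 (SE 0.17, limma adjusted p = 1.7e-11) with no overlap, although vessels, which host tissue brings, also use this gene. Abca13, a lipid transporter, fell by 3.32 and Rab39b, a small GTPase, by 3.23, both to means below background, at least 6.13-fold and 4.5-fold. Nnmt, which methylates nicotinamide, fell by 3.14, Ccn4, a secreted protein of the WNT pathway, by 3.02, Cyb5r1, a flavin reductase, by 2.99, Deptor, an inhibitor of the mTOR kinase, by 2.88, and Phyhd1, a dioxygenase, by 2.81 (at least 4.9-fold). The groups of these 5 genes did not overlap in either tumour set.

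The guadecitabine-experiment tumours gave the direction check that the choice of arrays provides. Both comparisons share the 4 cultures, so the second is no independent test of the culture side. All 12 genes with the largest rises and all 12 with the largest falls had the same direction there and passed the test. Of 129 genes named by the rule and called higher in the OTX015-experiment tumours, 123 had the same direction and 93 also passed. Of 57 called lower, 57 had the same direction and 52 passed. The 6 others among the rises were Hdc, Erg, Nt5e, H1f2, Cdh5 and Egr1, and Egr1 alone was called in the opposite direction. Without replicate 5 of the guadecitabine-experiment tumours, 117 of 129 and 56 of 57 had the same direction, 91 and 49 passed, and Nt5e was called in the opposite direction beside Egr1. Macrophage genes were lower in the second set. Of the 23 macrophage genes 18 were lower in the guadecitabine-experiment tumours than in the OTX015-experiment tumours, with a median of -0.91, where the receptor genes had a median of -0.22.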

How the data were processed

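RNA of 40 samples was measured on Affymetrix 3′ IVT arrays from 500 ng of total RNA, per the labels' protocols. The authors deposited log2 values for 45141 probe sets, and the submitters' processing notes name RMA and the Transcriptome Analysis Console without versions. The values were used as deposited, and no raw array files were used here. Of the probe sets, 28898 name 1 gene, 551 several and 15692 none in the platform annotation used, which gave 17097 genes, each represented by its brightest probe set, with symbols updated to RefSeq GRCm38.p6. The labels do not say which arrays RMA took together.

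Groups came from the labels. Linear models (limma 3.58.1, R 4.3.3, default eBayes, two-sided) were fitted over all 17097 genes with Benjamini-Hochberg adjustment, called at an adjusted p under 0.05, in 3 comparisons. The ± values are limma standard errors. The number of arrays limits the precision.

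The arrays, gene lists and tests were chosen with earlier results of these data known. Named genes were the 12 largest rises and falls above background, up to 4 called members of each list by adjusted p and up to 2 that were not called by mean level, and a fixed set of marker genes. Named after their values were seen were Arg1, Atf3, Atf4, C4b, Ccl2, Ccl12, Cd14, Cd36, Cd68, Cdkn1a, Chac1, Cited1, Ddit3, Dusp6, Fosb, Gas5, Gpr143, H2-Ab1, H2-Eb1, H2-Q4, H2-T23, Hk2, Il1b, Kit, Klf2, Lgals3, Malat1, Mc1r, Met, Mmp12, Mrc1, Neat1, Pfkl, Phgdh, Psat1, Psph, Rab38, Shmt2, Spry2, Tgtp1, Trp53inp1, Tyrobp, Vldlr, Vwf and Xist. Alternatives were other scalings, probe set rules, filters, thresholds and variance settings, the replicate number as a block, leaving out each array, and, added after seeing the data, leaving out both arrays of lowest spread.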

Additional observations from a re-analysis of the deposited data

Results flagged for a closer look

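Among 331 named genes, 232 differed between the OTX015-experiment tumours and the cultures, which are 186 genes named by the rule and 46 named after their values were seen, and 88 of the 232 also differed between the tumour sets. Each of the following 28 genes differed at least 2-fold between the sets in limma at an adjusted p under 0.05, and each value is the log2 level in the guadecitabine-experiment tumours minus that in the OTX015-experiment tumours. Lower in the guadecitabine-experiment tumours were the immediate early genes Fos (-2.42), Egr1 (-2.36), Fosb (-2.35), Klf2 (-2.19), Dusp1 (-2.09), Jun (-1.80), Junb (-1.62), Atf3 (-1.45) and Ccn1 (-1.02). Leukocyte genes were also lower there, with Cxcl2 at -2.37, S100a9 at -1.81, Cd14 at -1.73, S100a8 at -1.55, Il1b at -1.54, Ptprc at -1.21, Srgn at -1.20, C1qc at -1.13, C1qb at -1.09 and C1qa at -1.05. The histone gene H1f2 differed by -1.44 and the X-inactivation RNA Xist by -1.63. Higher in the guadecitabine-experiment tumours were the noncoding RNAs Neat1 (2.89), Gas5 (2.87) and Malat1 (1.78), the receptor partner Ramp2 (2.79), the sterol enzyme Hmgcs1 (2.29), whose probe set was below background in the OTX015-experiment tumours, Kit (1.07) and C4b (1.07). The tumour sets come from different experiments, and drug experiment, handling and array processing cannot be told apart between them, nor can the sex of the mice, which is not given.

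Of 662 pairs of a named gene and a group, 29 had 1 array far from the others by Dixon's test. The pairs covered the cultures and the guadecitabine-experiment tumours, not the OTX015-experiment tumours. Chance marks about 1 in 20 groups, and 29 of 662 is not above that rate. In the guadecitabine-experiment tumours, replicate 5 stood apart with log2 levels of 7.61 for C1qb, 3.66 for Prf1, 4.84 for Nt5e, 2.83 for Fgf21, 11.15 for H3f3b and 6.48 for Gas5. Replicate 1 stood apart for Eng (8.68) and Gadd45a (3.71), replicate 2 for Cavin2 (3.43), replicate 3 for H2-Ea (6.87) and Bgn (5.99), and replicate 4 for Nupr1 (6.22). Among the cultures, replicate 3 stood apart for Klrk1 (4.98), Cdh2 (8.30), Odc1 (6.56), Acly (8.44), Cryab (9.92) and Hk2 (7.86). Culture replicate 2 did so for Irf8 (3.59), Icos (4.21), Ccn2 (3.48), Psmb9 (5.50), Ctsk (4.12) and Cd36 (2.93), replicate 4 for Hbb-b2 (6.14), Oca2 (5.23) and Tyrobp (3.43), and replicate 1 for Ramp2 (8.86) and Bgn (4.13).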

How the results depend on the processing

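Counts of calls moved with the processing. In the OTX015-experiment tumours against the cultures, the count of higher genes was 2157 after median centring, 1383 among genes above background and 1862 at an adjusted p under 0.01. With every probe set tested 9322 were higher and 10132 lower, and at 2-fold or more 258 and 1121. In the guadecitabine-experiment tumours against the cultures, 7050 were higher and 10174 lower over every probe set, 1013 were higher at an adjusted p under 0.01, and 355 and 1272 passed at 2-fold or more. Between the tumour sets, 1206 genes above background were lower in the guadecitabine-experiment tumours. There 6553 were higher and 8871 lower over every probe set, 1017 and 846 at an adjusted p under 0.01, and 305 and 52 at 2-fold or more. A stricter threshold or more probe sets change such counts by construction. The loss on keeping only genes above background was one-sided. In the OTX015-experiment tumours 4613 of them were lower than in the cultures, against 5022 of all genes. The median difference there was -0.297 above background and 0.131 for the other genes. Between the tumour sets 1451 genes above background were higher, against 1726 of all genes. The causes of the moves after centring and after this filter were not tested.

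Leaving out 1 array gave 2504 to 3634 higher and 4239 to 5132 lower genes in the OTX015-experiment tumours against the cultures, and 1335 to 1817 and 4322 to 5064 in the guadecitabine-experiment tumours. Between the tumour sets it gave 1244 to 1866 higher and 1614 to 4017 lower, with fewer lower genes without guadecitabine-experiment replicate 1 (1791), 2 (2190), 3 (1614) or 4 (1943). Without OTX015-experiment replicates 9 and 11, an alternative added after seeing the data, 3624 were higher and 5004 lower than in the cultures. Deviations of same-numbered tumours and cultures from their group means correlated at 0.175, 0.071, -0.276 and 0.041. So few values cannot show whether the numbers pair the samples. With the replicate number as a block, 2026 genes were higher and 3980 lower in the OTX015-experiment tumours, and 994 were higher and 1481 lower between the tumour sets.

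Among named genes that changed sign, Ndc80 was 0.033 after quantile normalization and Des 0.195 with the mean of all probe sets, both in the OTX015-experiment tumours against the cultures. With the mean of all probe sets, Msmo1 was 0.869 and Id2 0.514 in the guadecitabine-experiment tumours against the cultures, and Wdr12 was 0.261, Rps6 -0.14 and Msmo1 0.787 between the tumour sets. The cause of these was not tested. Array signal near background limits the lists of T cells, endothelium and keratinocytes.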

Other observations

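Zinc finger genes named Zfp and a number, picked after their values were seen, were often lower in tumours. Of 301 measured, 198 (65.8%, against 29.4% of all genes) were lower and 16 higher in the OTX015-experiment tumours than in the cultures, 75 (24.9%) of the falls at least 2-fold, with a median log2 difference of -0.59 where all genes had 0.014. Above background, the 206 zinc finger genes had a median of -0.76 and all genes -0.297. In the guadecitabine-experiment tumours against the same cultures 171 (56.8%) were lower, with a median of -0.40. Between the tumour sets 65 were higher and 30 lower in the guadecitabine-experiment tumours. Many of these genes encode repressors of the KRAB family, which act on repeated DNA.

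Long noncoding RNAs set the tumour sets apart. Neat1, the scaffold of nuclear paraspeckles, had 5.64 at the lowest, 6.73 at the median and 7.62 at the highest in the OTX015-experiment tumours and 9.96, 9.63, 9.65, 10.25 and 8.35 in the guadecitabine-experiment tumours, against 8.79, 8.74, 8.87 and 8.62 in the cultures. The cultures lay above all OTX015-experiment tumours. Gas5, a host RNA of small nucleolar RNAs, had 3.95 at the lowest, 4.74 at the median and 5.53 at the highest in the OTX015-experiment tumours and 8.07, 7.92, 7.84, 7.83 and 6.48 in the guadecitabine-experiment tumours, against 7.21, 6.67, 7.35 and 6.87 in the cultures. Replicate 5 of the guadecitabine-experiment tumours was the lowest of its set for both. Xist, which coats the inactive X chromosome of female cells, had 6.13 at the lowest, 6.47 at the median and 7.57 at the highest in the OTX015-experiment tumours and 5.17, 5.12, 5.04, 4.92 and 5.11 in the guadecitabine-experiment tumours, against 4.91, 4.51, 5.17 and 4.75 in the cultures. The OTX015-experiment tumours stood above both other groups. The part of these RNAs in the other differences was not tested.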
